A study of Homo sapiens with 14 samples.

Results

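FOXO1 and FOXO3 were knocked down in serum-starved U2OS ER-E2F1 cells that received no 4-hydroxytamoxifen (OHT), and 2 knockdown arrays were set against 4 arrays of cells with a scrambled hairpin. U2OS is a human osteosarcoma line, and these cells carry ER-E2F1, in which E2F1 is joined to an estrogen receptor domain so that OHT switches it on. The knockdown arrays were 1 of cells infected with the lentivirus shFOXO33 and 1 of cells infected with shFOXO707, each virus directed against both FOXO1 and FOXO3. All 6 arrays came from cells kept without serum for 24 h before a final 6 h in fresh serum-free medium, and every group carried the ER-E2F1 fusion and a lentiviral hairpin. A further 8 arrays of the series, 4 of knockdown cells (2 per virus) and 4 of scrambled cells, had 20 nM OHT in those 6 h. Nothing in the labels says that arrays of 1 group came from separate cultures, so p-values measure the spread between these arrays, which may be technical.

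Genes were kept where both hairpin arrays lay on the same side of all 4 scrambled arrays. Each gene was read by its brightest probe set, and of 7720 genes above a mean level equal to a signal of 79.1, 2367 met this rule. Both hairpins lay above all scrambled arrays on 1379 genes, which is 17.9% of the genes measured, and below all of them on 988 genes, which is 12.8%. The side of each gene is thus what chose it and is given as a description.

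FOXO proteins are forkhead transcription factors that insulin and growth factor signalling keeps out of the nucleus through AKT, so that serum withdrawal lets them act. In the nucleus they are known for raising genes of cell cycle arrest, cell death, stress resistance, autophagy and feedback on insulin signalling. FOXO1 and FOXO3 bind the same core sequence and replace each other at many genes, so hairpins that reach both are used to remove their joint activity.

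The targeted genes were lower in both hairpin arrays. FOXO1, by its brighter probe set, had a MAS5 signal of 49.2 with shFOXO33 and 39.1 with shFOXO707, against 92.4, 107, 101 and 112 in the scrambled arrays. Each hairpin array was below every scrambled array, at 47.7% of the scrambled mean with shFOXO33 and 37.9% with shFOXO707. The log2 difference of the knockdown arrays from the scrambled arrays, on log2(signal + 16), was -0.99 ± 0.17 (SE; adjusted p = 0.00386), where adjusted p stands throughout for limma with Benjamini-Hochberg adjustment over the 7720 genes unless another fit is named. A gene was called where this value was under 0.05.

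FOXO3 had 138 with shFOXO33 and 274 with shFOXO707, against 424, 509.6, 448 and 415 in the scrambled arrays. The hairpins differed on this gene, with 30.7% of the scrambled mean left with shFOXO33 and 60.9% with shFOXO707. The pooled difference of -1.13 ± 0.37 (SE; adjusted p = 0.079) was not called; it passed with shFOXO33 alone (-1.59, adjusted p = 0.0468). A probe set that the annotation gives to both FOXO3 and FOXO3B read 29.2 with shFOXO33 and 61.9 with shFOXO707, against 149.7, 134, 147 and 137 in the scrambled arrays. In the separate fit of all probe sets its difference was -1.41 (adjusted p = 0.0216), and that of a second such probe set was -1.11 (adjusted p = 0.0843). FOXO4 lay below the level filter, at 51.3 with shFOXO33 and 73.2 with shFOXO707, against 82, 79.2, 81.2 and 64.1 in the scrambled arrays, and was not on one side. The brighter probe set of E2F1 had 199 with shFOXO33 and 219 with shFOXO707, against 209.5, 254, 207 and 240 in the scrambled arrays, with overlap between the groups and a difference of -0.11 ± 0.12 (SE; adjusted p = 0.651).

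**Figure D1:**
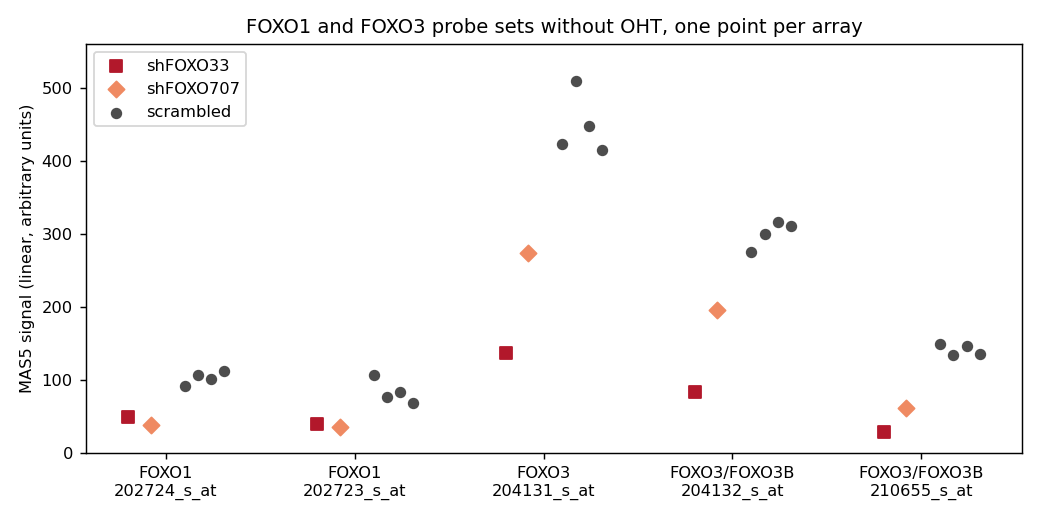
MAS5 signal (linear, arbitrary units) of 5 probe sets of FOXO1 and FOXO3 in the arrays without OHT, with 1 point per array; squares are shFOXO33, diamonds shFOXO707 and circles the 4 scrambled arrays. Both hairpin points lie below all scrambled points on each probe set, and the diamond lies above the square on the 3 FOXO3 probe sets.

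Across the 7720 genes, 374 were called higher in knockdown cells, or 4.84%, and 229 were called lower, or 2.97%. All but 1 of these 603 calls met the rule on sides; the exception was REV3L, a DNA polymerase subunit called lower on which shFOXO707 was not below every scrambled array. The rule and the test read the same arrays, so that overlap is no result. Of the 1765 members that were not called, 909 had an unadjusted p under 0.05. All 602 called members had one as well, so many of the 7720 genes passed this unadjusted limit. The share of all genes at it was not counted each way, so list counts at it have no share beside them and are a description only. The called members were 374 higher and 228 lower genes. A fold of 2 or more on the mean of the hairpins was found for 29 of the genes called higher and 21 of those called lower, and each hairpin singly reached it for 15 and 6 members. The median difference over all genes was 0.02. The calls rest on 1 array per hairpin, with the spread taken over all 14 arrays in 4 groups. Taking each virus under each treatment as a random block, which lets arrays of 1 virus share a deviation, left 16 genes called higher and 12 called lower. Among called members named by the rule stated under processing, 18 kept their call with this block and 82 lost it. Over the 6 arrays without OHT alone, 59 kept it and 41 lost it. Centring each array on its median gave 300 higher and 278 lower, a higher share of 51.9% in place of 62.0%.

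Signal level and RNA quality controls of the hairpin arrays lay near those of the scrambled arrays. Median signals were 141.0 with shFOXO33 and 143 with shFOXO707, against 137 to 142 in the scrambled arrays (exact permutation p = 0.2, two-sided, where the smallest p that 2 against 4 arrays allow is 0.0667). The ratio of 3′ to 5′ signal of ACTB was 1.49 and 1.64 in the hairpin arrays, against 1.5 to 1.59 in the scrambled arrays, and that of GAPDH was 0.983 and 1.04, against 1.0 to 1.1. Across genes, 2 scrambled arrays correlated at 0.992 to 0.993, a hairpin array with a scrambled array at 0.969 to 0.971, and the 2 hairpin arrays with each other at 0.956. The hairpins were thus farther from each other than from the scrambled cells over all genes.

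The largest rises joined genes of unlike function. HSD17B10, a mitochondrial dehydrogenase that is also a subunit of mitochondrial ribonuclease P, read 2015 with shFOXO33 and 1534 with shFOXO707, against 431, 402, 409.8 and 362 in the scrambled arrays. Both hairpin arrays stood far above every scrambled array, and the log2 difference was 2.09 ± 0.17 (SE; adjusted p = 1.48e-05). DYNLRB1, a light chain of cytoplasmic dynein, had 2340.3 with shFOXO33 and 2650.1 with shFOXO707, against 636, 641, 587 and 567 in the scrambled arrays. Its difference was 2.01 ± 0.13 (SE; adjusted p = 1.7e-06), and its second probe set gave 1.66. TAPBP, the chaperone tapasin that loads peptides onto MHC class I, had 1021 with shFOXO33 and 957 with shFOXO707, against 216, 260.1, 268 and 253 in the scrambled arrays, which is 1.92 ± 0.17 (SE; adjusted p = 2.35e-05) in log2. On these probe sets the hairpins gave nearly the same level for DYNLRB1 and TAPBP, and a level farther apart for HSD17B10. A dim second probe set of TAPBP gave 0.26, with overlap between the groups (adjusted p = 0.903 in limma over all probe sets).

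ADAMTS1, a secreted metalloprotease, stood at 593 with shFOXO33 and 472 with shFOXO707, against 129, 128, 128 and 111 in the scrambled arrays, a difference of 1.96 ± 0.19 (SE; adjusted p = 4.21e-05). FSCN1, the actin-bundling protein fascin, read 1512 with shFOXO33 and 1389.8 with shFOXO707, against 493, 485, 422 and 479 in the scrambled arrays, a difference of 1.6 ± 0.10 (SE; adjusted p = 1.71e-06), with 1.14 on its second probe set. SFXN3, a sideroflexin of the inner mitochondrial membrane, had 1170 with shFOXO33 and 1334 with shFOXO707, against 398, 416, 371 and 437 in the scrambled arrays, a difference of 1.59 ± 0.23 (SE; adjusted p = 0.00094), with 1.41 on its second probe set. On these 3 genes every hairpin signal was more than 2 times every scrambled signal.

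NF2, which encodes the tumour suppressor merlin, is a case where probe sets disagreed. The brightest probe set read 3207 with shFOXO33 and 1887 with shFOXO707, against 774, 698, 650.4 and 665 in the scrambled arrays, a difference of 1.80 ± 0.25 (SE; adjusted p = 0.000933). The other 6 probe sets gave differences of -0.01 to 0.82, none of them called in the fit of all probe sets, and the mean of all probe sets gave 0.61 (adjusted p = 0.12). The large value of NF2 therefore belongs to 1 probe set.

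Further rises of over 1 log2 unit were 1.21 for TRIM58, a ubiquitin ligase of the TRIM family, 1.16 for CPOX of heme synthesis and 1.15 for the phosphoinositide kinase PIP5K1C. FURIN, the convertase that cleaves proproteins, had 356 with shFOXO33 and 422 with shFOXO707, against 195, 145, 179 and 152 in the scrambled arrays, a difference of 1.14 ± 0.11 (SE; adjusted p = 5.1e-05). PIERCE1, AFP, EPHA4 and KLHDC3 followed, at 1.12, 1.12, 1.10 and 1.09. EPHA4, an ephrin receptor, was the least firm of these: without scrambled replicate 4 its adjusted p was 0.0507.

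The largest falls included the giant scaffold proteins AHNAK2 and AHNAK. AHNAK2 had 276 with shFOXO33 and 192 with shFOXO707, against 873, 716, 719 and 788 in the scrambled arrays, a difference of -1.68 ± 0.14 (SE; adjusted p = 2.16e-05). For AHNAK the brighter probe set read 823 with shFOXO33 and 691 with shFOXO707, against 2068, 1871, 2125 and 1917 in the scrambled arrays, a difference of -1.38 ± 0.16 (SE; adjusted p = 0.000269), while a dim second probe set gave -0.07. PIMREG, a regulator of mitosis, had 313 with shFOXO33 and 224 with shFOXO707, against 758, 729, 753 and 715 in the scrambled arrays, a difference of -1.43 ± 0.19 (SE; adjusted p = 0.000563). Every scrambled signal was more than 2 times every hairpin signal on AHNAK2, AHNAK and PIMREG.

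TMX1, a thioredoxin-related protein of the endoplasmic reticulum membrane, read 1333 with shFOXO33 and 1719 with shFOXO707, against 3933, 3832, 3751 and 3914 in the scrambled arrays, a difference of -1.34 ± 0.13 (SE; adjusted p = 4.94e-05), and -0.88 on its second probe set. SEMA3F, a secreted semaphorin, had 318 with shFOXO33 and 529 with shFOXO707, against 954, 1044, 1109 and 1018 in the scrambled arrays, a difference of -1.29 ± 0.21 (SE; adjusted p = 0.00202), with -1.05 and -0.30 on its other probe sets. CD70, the ligand of CD27, fell to 217 with shFOXO33 and 354 with shFOXO707, against 763, 649, 738 and 727 in the scrambled arrays, a difference of -1.32 ± 0.24 (SE; adjusted p = 0.00446). SFRP1, a secreted Wnt antagonist, TDP1, which repairs topoisomerase adducts, CRYBA4, a crystallin, and MAF, a bZIP transcription factor, had differences of -1.16, -1.14, -1.13 and -1.13. The calls of SFRP1 and TDP1 were lost without any 1 of the 4 scrambled arrays, at adjusted p of 0.0546 to 0.0805 for SFRP1 and 0.0606 to 0.0792 for TDP1.

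**Figure D2:**
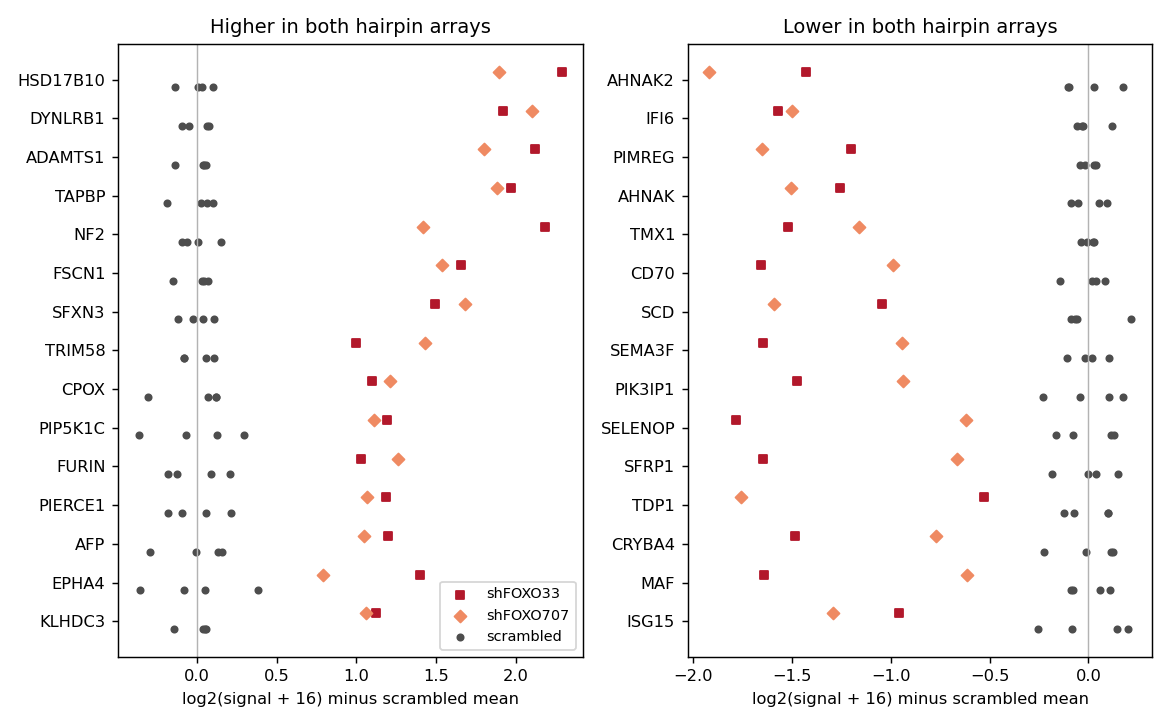
Level of the 15 largest members each way in each array without OHT, as log2(signal + 16) minus the mean of the 4 scrambled arrays; squares are shFOXO33, diamonds shFOXO707, circles scrambled arrays. The scrambled points lie close to 0, and the hairpins lie farther apart among the lower genes, as on SELENOP and TDP1, than among most of the higher genes.

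Genes described as direct FOXO targets moved both ways, and more of them lay below the scrambled arrays. Of 45 on the list, 27 were measured above the filter. Both hairpins were lower on 12 of them (44.4%, against 12.8% of all genes) and higher on 4 (14.8%, against 17.9%). The list does not separate genes that FOXO raises from genes that it lowers, and the 12 include the cyclin genes CCND1 and CCND2. The count of lower genes is therefore not a count of genes that lost activation. The calls were 5 lower (18.5%, against 2.97%) and 3 higher (11.1%, against 4.84%), and the list's median difference was -0.28, against 0.02 over all genes. PIK3IP1, which restrains PI3K, had 101 with shFOXO33 and 153 with shFOXO707, against 260.3, 298, 332 and 349 in the scrambled arrays, a difference of -1.21 ± 0.29 (SE; adjusted p = 0.0224), and -1.76 on its second probe set. KLHL24, a substrate adaptor of ubiquitin ligase, read 332 with shFOXO33 and 281 with shFOXO707, against 480.5, 545, 600.3 and 570.1 in the scrambled arrays, a difference of -0.81 ± 0.12 (SE; adjusted p = 0.00127), though its other probe sets gave -0.97 and 0.34 and the mean of its probe sets was not called (adjusted p = 0.0931). BCL2L11, the cell death protein BIM, fell to 203 with shFOXO33 and 219 with shFOXO707, against 273, 286, 275 and 348 in the scrambled arrays, a difference of -0.45 ± 0.10 (SE; adjusted p = 0.0153). By the rule that chose members, no hairpin array overlapped a scrambled array on the probe sets used for these genes.

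SELENOP, the plasma carrier of selenium, showed the hairpins far apart, with 100.1 with shFOXO33 and 244 with shFOXO707, against 340, 362, 420.4 and 416 in the scrambled arrays. Its difference was -1.20 ± 0.30 (SE; adjusted p = 0.0275), and the call was lost without scrambled replicate 2, 3 or 4 (adjusted p of 0.0525 to 0.0653). That of PIK3IP1 was lost without replicate 3 or 4 (0.0529 to 0.0584). MXI1, a MAX partner that opposes MYC, had 1683 with shFOXO33 and 1752 with shFOXO707, against 2099, 1953, 2106 and 2232 in the scrambled arrays, a difference of -0.28 ± 0.07 (SE; adjusted p = 0.0213), which was lost without replicate 4 (0.0579). Called lower on this list were thus a brake on PI3K, a cell death gene and a MYC antagonist besides KLHL24 and SELENOP.

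The 3 list genes called higher were KLF2, TRIB1 and ATG14. KLF2, a zinc finger factor of quiescence, read 447 with shFOXO33 and 471 with shFOXO707, against 214, 237, 259.6 and 220.5 in the scrambled arrays, a difference of 0.94 ± 0.13 (SE; adjusted p = 0.000974). TRIB1, a pseudokinase that recruits a ubiquitin ligase, had 830.4 with shFOXO33 and 858 with shFOXO707, against 483, 495, 457 and 524 in the scrambled arrays, a difference of 0.77 ± 0.07 (SE; adjusted p = 2.57e-05), and ATG14, an autophagy subunit of the class III PI3K complex, had 679.5 with shFOXO33 and 662 with shFOXO707, against 492, 502, 492 and 528 in the scrambled arrays, a difference of 0.40 ± 0.08 (SE; adjusted p = 0.00818). On all 3 the hairpins lay close to each other. With the random block TRIB1 was the 1 gene of the list still called.

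Several well-known FOXO targets were not called. CDKN1B, which encodes the CDK inhibitor p27, had 1737 with shFOXO33 and 1247 with shFOXO707, against 1594, 1729, 1681 and 1625 in the scrambled arrays, with the scrambled arrays between the hairpins and a difference of -0.17 ± 0.12 (SE; adjusted p = 0.445). CCND1, encoding cyclin D1, had 1087 with shFOXO33 and 2403 with shFOXO707, against 2461, 2733, 2770.4 and 2796 in the scrambled arrays, and CCND2, encoding cyclin D2, had 4564 with shFOXO33 and 1772 with shFOXO707, against 5726, 5553, 5633 and 5226 in the scrambled arrays. Each hairpin was below all scrambled arrays on both cyclins, and the pooled adjusted p was 0.121 and 0.379. On these brightest probe sets each gene fell mainly with 1 hairpin, shFOXO33 on CCND1 and shFOXO707 on CCND2. A second probe set of CCND2 was lower with both, at -0.88 (adjusted p = 0.00159 in the fit of all probe sets). BCL6, a transcriptional repressor, had 558 with shFOXO33 and 556 with shFOXO707, against 826, 587, 772 and 729 in the scrambled arrays, below all scrambled arrays but not called (adjusted p = 0.18). KLF6, a zinc finger factor, had 792 with shFOXO33 and 561 with shFOXO707, against 866, 731, 721 and 718 in the scrambled arrays and was not on one side.

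**Figure D3:**
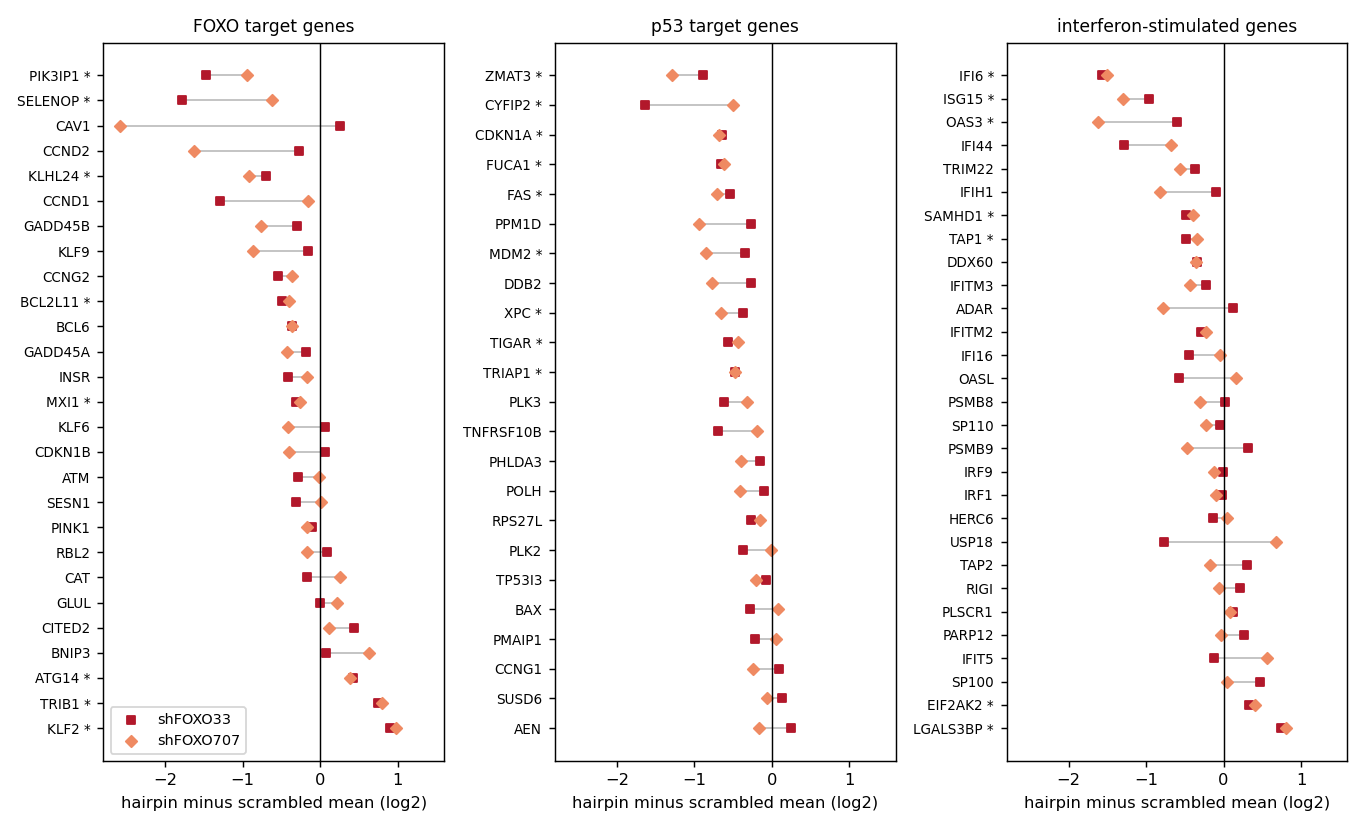
Difference of each hairpin array from the mean of the 4 scrambled arrays (log2 of signal + 16) for all measured genes of the FOXO target, p53 target and interferon-stimulated lists; squares are shFOXO33, diamonds shFOXO707, a line joins them and an asterisk marks a called gene. Most p53 target genes have both points left of 0, while on CAV1, CCND1 and CCND2 the hairpins are far apart.

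FOXO factors bind DNA at a forkhead element of the letters GTAAACA, and 2 FOXO target genes, both called lower, carried it within 250 bases before to 50 bases after their RefSeq start. The windows of SELENOP, chr5:42811843-42812142 (- strand), and BCL2L11, chr2:111120664-111120963 (+ strand), both from RefSeq on GRCh38.p14, are printed to show where it lies, with the element in capitals, 45 and 223 bases before the start.
SELENOP: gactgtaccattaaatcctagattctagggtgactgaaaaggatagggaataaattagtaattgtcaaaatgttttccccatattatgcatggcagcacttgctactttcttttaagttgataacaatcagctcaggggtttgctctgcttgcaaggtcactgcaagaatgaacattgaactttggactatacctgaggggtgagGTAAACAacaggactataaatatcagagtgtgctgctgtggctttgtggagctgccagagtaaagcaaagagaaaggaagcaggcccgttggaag
BCL2L11: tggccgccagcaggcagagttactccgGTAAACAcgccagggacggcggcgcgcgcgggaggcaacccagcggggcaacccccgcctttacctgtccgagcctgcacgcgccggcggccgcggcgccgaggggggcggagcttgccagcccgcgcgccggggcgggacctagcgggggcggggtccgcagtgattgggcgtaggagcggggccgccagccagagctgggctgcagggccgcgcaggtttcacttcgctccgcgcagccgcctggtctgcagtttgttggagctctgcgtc
A forkhead element, searched on both strands, was in 2.67% of the 187 matched windows of genes called lower and in 1.62% of the 308 of genes called higher, against 2.16% of all 6440 matched windows. Of 22 matched windows of FOXO target genes, 2 held it. Among other named genes it was also in the windows of CPOX and CCND3, both called higher, and of TDP1, called lower. The insulin response element CAAAACA was in 4.81% of the windows of genes called lower, 1.62% of those called higher and 2.75% of all. These shares describe letters near start sites and not binding.

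Genes that p53 is known to activate were lower as a group and none was called higher. Of 23 measured, both hairpins lay below all scrambled arrays on 16 (69.6%, against 12.8% of all genes) and above on 0, and 9 were called lower (39.1%, against 2.97%). The list's median difference was -0.47, against 0.02 over all genes, and 14 genes were lower and 0 higher at an unadjusted p under 0.05 in limma (share of all genes not counted). CDKN1A, which encodes the CDK inhibitor p21, had 2185 with shFOXO33 and 2131 with shFOXO707, against 3197, 3281, 3537 and 3666 in the scrambled arrays, a difference of -0.66 ± 0.07 (SE; adjusted p = 8.33e-05). ZMAT3, an RNA-binding protein, read 816 with shFOXO33 and 613 with shFOXO707, against 1473, 1563, 1431 and 1645 in the scrambled arrays, a difference of -1.09 ± 0.17 (SE; adjusted p = 0.00148). FAS, the death receptor, had 1063 with shFOXO33 and 939 with shFOXO707, against 1507, 1510.2, 1687 and 1502 in the scrambled arrays, a difference of -0.62 ± 0.11 (SE; adjusted p = 0.00372), with -0.50 to -0.63 on its 3 other probe sets. The hairpins gave nearly equal levels on CDKN1A.

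TRIAP1, a mitochondrial lipid transfer chaperone that opposes cell death, had 1834 with shFOXO33 and 1834 with shFOXO707, against 2522, 2499, 2571 and 2606 in the scrambled arrays, a difference of -0.47 ± 0.06 (SE; adjusted p = 0.000566). FUCA1, a lysosomal fucosidase, had 538 with shFOXO33 and 554 with shFOXO707, against 857, 787, 908 and 888 in the scrambled arrays, a difference of -0.64 ± 0.09 (SE; adjusted p = 0.000851). Calls named after their values were seen were MDM2, the ubiquitin ligase of p53, at -0.60, TIGAR, a fructose bisphosphatase, at -0.51, and XPC, a sensor of DNA damage, at -0.52. The remaining call was CYFIP2, of the actin WAVE complex, at -1.07. On its brightest probe set CYFIP2 was far lower with shFOXO33, 404 with shFOXO33 and 907 with shFOXO707, against 1258, 1259, 1313 and 1351 in the scrambled arrays. A dim second probe set left 73.4% of the scrambled mean with shFOXO33 and 60.4% with shFOXO707. The CYFIP2 call was lost without any 1 scrambled array (adjusted p of 0.0618 to 0.0716). The number called lower was 10 with quantile normalisation and 10 with median centring, and fell to 1, ZMAT3, with the random block. BAX, PMAIP1 and CCNG1, which the same factor activates, had differences of -0.10, -0.08 and -0.08 and were not on one side.

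Interferon-stimulated genes were mixed, with the strongest falls among antiviral effectors. Of 29 measured, both hairpins were lower on 10 (34.5%, against 12.8%) and higher on 3 (10.3%, against 17.9%), and the calls were 5 lower (17.2%, against 2.97%) and 2 higher (6.9%, against 4.84%). IFI6, an interferon-induced membrane protein, had 319 with shFOXO33 and 335 with shFOXO707, against 953, 937, 1063 and 957 in the scrambled arrays, a difference of -1.53 ± 0.09 (SE; adjusted p = 1.7e-06). ISG15, a ubiquitin-like modifier, read 243 with shFOXO33 and 189 with shFOXO707, against 404, 457, 559 and 538 in the scrambled arrays, a difference of -1.12 ± 0.15 (SE; adjusted p = 0.000563). OAS3, a sensor of double-stranded RNA, had 161 with shFOXO33 and 71.2 with shFOXO707, against 249, 252, 242 and 268 in the scrambled arrays, a difference of -1.11 ± 0.26 (SE; adjusted p = 0.0186). IFI6 was at 32.6% of the scrambled mean with shFOXO33 and 34.3% with shFOXO707, while OAS3 fell further with shFOXO707.

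SAMHD1, a nucleotide hydrolase that restricts viruses, and TAP1, the peptide transporter of antigen presentation, were called lower at -0.44 and -0.41. LGALS3BP, a secreted galectin-3 ligand, rose to 1423 with shFOXO33 and 1494 with shFOXO707, against 807, 857, 840 and 884 in the scrambled arrays, a difference of 0.77 ± 0.08 (SE; adjusted p = 5.38e-05). EIF2AK2, the kinase PKR, had 985 with shFOXO33 and 1039.7 with shFOXO707, against 821, 812, 734 and 773 in the scrambled arrays, a difference of 0.36 ± 0.07 (SE; adjusted p = 0.00622). On these probe sets both genes moved against IFI6 and ISG15. A second probe set of EIF2AK2 gave -0.06, with overlap between the groups (adjusted p = 0.834 in the fit of all probe sets). IFIH1 and IRF9, a sensor and a transcription factor of the pathway, had differences of -0.46 and -0.06 and were not on one side. With the random block IFI6 and LGALS3BP stayed called.

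In the list of MHC class I presentation, TAPBP was the 1 called gene among 11 measured (9.09%, against 4.84%). The peptide transporter genes TAP1, called lower above, and TAP2 were counted on the interferon list and not here. HLA-B, a heavy chain, had a difference of -0.04 and B2M, its light chain, -0.04, and neither was on one side of the scrambled arrays.

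Interferon signalling acts through a response element searched here on both strands as GAAA, any 2 bases and GAAA, where matches may overlap. The windows of IFI6, chr1:27672143-27672442 (- strand), ISG15, chr1:1013247-1013546 (+ strand), and TAPBP, chr6:33314029-33314328 (- strand), are printed because the first 2 genes were called lower and the third higher although all 3 hold the element; they are from RefSeq on GRCh38.p14, with element letters in capitals. The last run of capitals in ISG15 is a CArG box, the site of serum response factor. In ISG15 and TAPBP the 2 matches overlap each other and print as 1 run of capitals.
IFI6: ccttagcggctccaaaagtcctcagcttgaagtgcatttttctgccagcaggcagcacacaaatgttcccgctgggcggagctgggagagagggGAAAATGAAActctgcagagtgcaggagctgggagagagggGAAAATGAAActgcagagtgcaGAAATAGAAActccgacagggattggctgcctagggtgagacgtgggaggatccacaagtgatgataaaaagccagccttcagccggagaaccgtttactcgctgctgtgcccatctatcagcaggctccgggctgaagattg
ISG15: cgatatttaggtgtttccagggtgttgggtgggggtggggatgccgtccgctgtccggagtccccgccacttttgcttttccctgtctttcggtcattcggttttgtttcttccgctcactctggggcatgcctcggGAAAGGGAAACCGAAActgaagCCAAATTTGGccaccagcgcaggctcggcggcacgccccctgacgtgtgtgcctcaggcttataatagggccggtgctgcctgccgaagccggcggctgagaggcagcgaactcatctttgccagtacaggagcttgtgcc
TAPBP: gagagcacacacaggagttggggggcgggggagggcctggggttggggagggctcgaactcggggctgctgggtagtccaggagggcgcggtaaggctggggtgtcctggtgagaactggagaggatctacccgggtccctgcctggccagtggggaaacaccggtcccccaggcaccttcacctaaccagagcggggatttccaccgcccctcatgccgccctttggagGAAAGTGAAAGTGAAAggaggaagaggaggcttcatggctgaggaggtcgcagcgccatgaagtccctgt
The element began 156, 115 and 93 bases before the start of IFI6, 113 and 107 before that of ISG15 and 20 and 14 before that of TAPBP. It was in 14 of 25 matched windows of the interferon list (56.0%), against 2.64% of all windows, 3.21% of those of genes called lower and 3.9% of those called higher. The direction of these genes was therefore not the same for all that carry the letters.

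Genes of growth signalling and the cell cycle showed few calls. Of 32 measured genes of insulin, PI3K and mTOR signalling, 4 were called higher (12.5%, against 4.84%) and 1 lower (3.12%, against 2.97%). The lower one was PIK3CB, a catalytic subunit of PI3K, with 250 with shFOXO33 and 243 with shFOXO707, against 333, 379, 324 and 349 in the scrambled arrays, a difference of -0.46 ± 0.08 (SE; adjusted p = 0.00406). The higher ones were INPP4B, a phosphatase that ends PI3K signals (0.44), the receptor IGF2R (0.40), the AKT phosphatase PHLPP1 (0.38) and the kinase PIK3C2A (0.27). Each of these 4 calls was lost without at least 3 of the 4 scrambled arrays in turn (adjusted p of 0.0528 to 0.0996).

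Of 54 measured genes of mitosis, both hairpins were lower on 13 (24.1%, against 12.8%) and higher on 0. The 1 call (1.85%, against 2.97% of all genes called lower) was CENPA, the centromeric histone, at -0.53 ± 0.12 (SE; adjusted p = 0.0176). At an unadjusted p under 0.05 in limma, 11 mitosis genes were lower and 0 higher (share of all genes not counted). Of 60 genes of DNA replication and the E2F programme, 3 were called lower (5%, against 2.97%) and 0 higher: ASF1B, a histone chaperone (-0.61), RRM2, of ribonucleotide reductase (-0.41, with 0.18 on a second probe set), and UNG, which removes uracil from DNA (-0.37). ASF1B lost its call without scrambled replicate 4 (adjusted p = 0.0584) and UNG without replicate 2 or 4 (0.0504 to 0.0514). Of 17 measured G1 regulators, 2 were called higher (11.8%, against 4.84%) and 1 lower (5.88%, against 2.97%). CDK4 was lower, with 2836 with shFOXO33 and 2447 with shFOXO707, against 3538, 3556, 3521 and 3561 in the scrambled arrays, a difference of -0.43 ± 0.08 (SE; adjusted p = 0.00711). E2F6, a repressor of E2F genes, was higher at 0.63 ± 0.10 (SE; adjusted p = 0.00159), and CCND3, encoding cyclin D3, at 0.42 ± 0.07 (SE; adjusted p = 0.00439). The 3 calls on this list thus named 1 kinase lower and a cyclin and a repressor higher.

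Of 31 measured genes of the apoptosis list, 3 were called higher (9.68%, against 4.84%) and 1 lower (3.23%, against 2.97%), the lower one being BCL2L11. FAS, described above, was lower too but was counted on the p53 list. The higher genes were CASP8, the initiator caspase (0.60), TNFRSF21, a death receptor (0.46), and BID, which links death receptors to mitochondria (0.45). CASP8 lost its call without any 1 scrambled array (adjusted p of 0.0737 to 0.101), TNFRSF21 without 3 of them (0.0653 to 0.0833) and BID without 1 (0.0505).

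Stress responses and metabolism changed in single genes. Of 33 measured genes of the unfolded protein and integrated stress response, 5 were called higher (15.2%, against 4.84%) and 4 lower (12.1%, against 2.97%). SLC7A11, the cystine transporter that feeds glutathione synthesis, had 1527 with shFOXO33 and 1928 with shFOXO707, against 848, 772, 799 and 932 in the scrambled arrays, a difference of 1.02 ± 0.18 (SE; adjusted p = 0.00351). CREB3L2, a transcription factor of the endoplasmic reticulum, rose to 486 with shFOXO33 and 663 with shFOXO707, against 274, 278, 244 and 301 in the scrambled arrays, a difference of 1.01 ± 0.15 (SE; adjusted p = 0.00108). SLC7A5, the transporter of large neutral amino acids, fell to 1634 with shFOXO33 and 1426 with shFOXO707, against 3264, 3016, 2993 and 2902 in the scrambled arrays, a difference of -0.99 ± 0.11 (SE; adjusted p = 0.000107). These amino acid transporters, 1 for cystine and 1 for leucine and its kin, moved in opposite directions with each hairpin.

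SEL1L, of the degradation complex of the endoplasmic reticulum, was lower at -0.49, VEGFA, the angiogenic growth factor, higher at 0.40 and ATF3, a stress-induced bZIP factor, higher at 0.40 (adjusted p = 0.0497). The call of ATF3 was lost without any 1 scrambled array (0.0649 to 0.109), and the other VEGFA probe sets gave differences of -0.21, -0.03 and 0.35. Antioxidant genes called higher, besides SLC7A11, were NFE2L2, the regulator NRF2 (0.41), and TXN, thioredoxin (0.18), which made 3 of 23 measured (13%, against 4.84%), and 0 were called lower. NFE2L2 lost its call without scrambled replicate 1 or 2 (0.0636 to 0.065) and TXN without replicate 1, 3 or 4 (0.0769 to 0.101).

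Of 27 measured genes of sterol and fatty acid synthesis, both hairpins were lower on 9 (33.3%, against 12.8%), and 3 were called lower (11.1%, against 2.97%) and 0 higher. The counts were 8 and 0 at an unadjusted p under 0.05 in limma (share of all genes not counted). SCD, the desaturase that makes oleate, had 2083 with shFOXO33 and 1420.2 with shFOXO707, against 5008, 4112, 4131 and 4046 in the scrambled arrays, a difference of -1.32 ± 0.13 (SE; adjusted p = 4.21e-05), and -0.70 to -1.19 on its 3 other probe sets. HMGCS1, an enzyme early in the mevalonate route, had 896 with shFOXO33 and 1277 with shFOXO707, against 1767, 1679, 1881 and 1815 in the scrambled arrays, a difference of -0.73 ± 0.15 (SE; adjusted p = 0.0106), though a second probe set gave -0.15 and the mean of its probe sets was not called (adjusted p = 0.29). IDI1, which isomerises isopentenyl diphosphate, had 763 with shFOXO33 and 761 with shFOXO707, against 1191, 953, 1034 and 1068 in the scrambled arrays, a difference of -0.46 ± 0.08 (SE; adjusted p = 0.00446). SQLE and LSS, further along the same route, had differences of -0.01 and 0.05, so the enzymes of this pathway did not move as one.

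Of 47 measured autophagy and lysosome genes, both hairpins were lower on 14 (29.8%, against 12.8%), and 5 were called lower (10.6%, against 2.97%) and 2 higher (4.26%, against 4.84%). NBR1, an autophagy receptor, had 854 with shFOXO33 and 859.8 with shFOXO707, against 1248, 1309, 1295 and 1252 in the scrambled arrays, a difference of -0.57 ± 0.11 (SE; adjusted p = 0.00604). NPC2, which exports cholesterol from lysosomes (-0.32), and ATG7, which activates ubiquitin-like proteins of autophagy (-0.49), were lower too, while ULK2, a starting kinase, was higher at 0.59 along with ATG14. ATG7 lost its call without 2 of the scrambled arrays (adjusted p of 0.0506 to 0.051).

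Of 35 measured genes of glycolysis and hypoxia, 4 were called lower (11.4%, against 2.97%) and 1 higher (2.86%, against 4.84%). The lower ones were ALDOC, an aldolase (-0.53), PKM, pyruvate kinase (-0.39), PDK3, a kinase that restrains pyruvate dehydrogenase (-0.37), and MXI1, and the higher one was VEGFA. The call of PDK3 was lost without scrambled replicate 1, 2 or 3 (adjusted p of 0.0672 to 0.111). Oxidative phosphorylation had 0 calls among 53 measured subunits and the ribosomal proteins 0 among 51, against 4.84% called higher and 2.97% lower over all genes. The list medians were 0.05 and -0.0047. The ribosomal median pooled hairpins that shifted in opposite directions: shFOXO33 was above all scrambled arrays on 34 of the 51 genes and below on 1, and shFOXO707 was above on 1 and below on 37. Of all 7720 genes, shFOXO33 was above on 2992 and below on 2445, and shFOXO707 above on 2845 and below on 2436. At an unadjusted p under 0.05 in limma, 4 subunits of oxidative phosphorylation and 1 ribosomal protein were higher and 0 lower (share of all genes not counted). These few counts are not read as a change of either list.

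Secreted and matrix genes changed in both directions. Of 44 measured matrix genes, both hairpins were lower on 13 (29.5%, against 12.8%), and 3 were called lower (6.82%, against 2.97%) and 2 higher (4.55%, against 4.84%). TNC, the matrix protein tenascin C, had 1701 with shFOXO33 and 1768 with shFOXO707, against 796, 1046, 964 and 963 in the scrambled arrays, a difference of 0.88 ± 0.11 (SE; adjusted p = 0.000315). LAMA5, a laminin chain, read 739.9 with shFOXO33 and 762 with shFOXO707, against 1399, 1241, 1436 and 1570.2 in the scrambled arrays, a difference of -0.89 ± 0.18 (SE; adjusted p = 0.00818). PLOD1, which hydroxylates collagen lysines, was higher at 0.59, COL6A1, a collagen chain, lower at -0.38 and TIMP2, a metalloprotease inhibitor, lower at -0.51, the last losing its call without 3 of the scrambled arrays (adjusted p of 0.0569 to 0.0709).

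Of 35 measured genes of the TGF-beta and BMP pathway, 5 were called lower (14.3%, against 2.97%) and 2 higher (5.71%, against 4.84%). BMP4, a ligand, had 1372 with shFOXO33 and 1464 with shFOXO707, against 2159.9, 2061, 2055 and 2123 in the scrambled arrays, a difference of -0.56 ± 0.07 (SE; adjusted p = 0.000571). FST, the activin antagonist follistatin, had 1281 with shFOXO33 and 1203 with shFOXO707, against 1717, 1683, 1828 and 1916 in the scrambled arrays, a difference of -0.52 ± 0.07 (SE; adjusted p = 0.000563). ID1, a target of BMP signals, was lower at -0.58, LTBP2, a matrix protein of the same family as TGF-beta carriers, at -0.33, and the receptor ACVR1B was higher at 0.34. On their brightest probe sets a ligand and an antagonist of the pathway were thus lower together. A second FST probe set gave -0.28 (adjusted p = 0.209 in the fit of all probe sets) and was not on one side. It left 95.8% of the scrambled mean with shFOXO33 and 68.3% with shFOXO707. ID1 lost its call without scrambled replicate 2, 3 or 4 (0.0591 to 0.0638) and ACVR1B without replicate 2 or 3 (0.0592 to 0.0603).

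Of 19 measured YAP and TEAD genes, ANKRD1, a cardiac ankyrin repeat protein, was called lower at -0.78 ± 0.15 (SE; adjusted p = 0.00569) and FSTL1, a secreted glycoprotein, at -0.48 ± 0.06 (SE; adjusted p = 0.000633), beside the NF2 probe set. Of 31 immediate early genes 2 were called each way (6.45%, against 4.84% higher and 2.97% lower). JUND, a subunit of AP-1, had 3111 with shFOXO33 and 2661 with shFOXO707, against 1825, 1812, 1841 and 1727 in the scrambled arrays, a difference of 0.67 ± 0.11 (SE; adjusted p = 0.00214), and IER3 was lower at -0.53 ± 0.10 (SE; adjusted p = 0.00802); PHLDA1 (-0.34) and ATF3 were the other calls. The cytokine and NF-kB list had IL6ST, the receptor gp130 (0.34), and NFKBIB, an inhibitor of NF-kB (0.42), called higher among 18 (11.1%, against 4.84%). The histone list had 0 calls among 10, against 4.84% called higher and 2.97% lower over all genes. PHLDA1 lost its call without any 1 scrambled array (adjusted p of 0.0573 to 0.0969) and NFKBIB without replicate 1 or 4 (0.0574 to 0.0624).

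**Figure D4:**
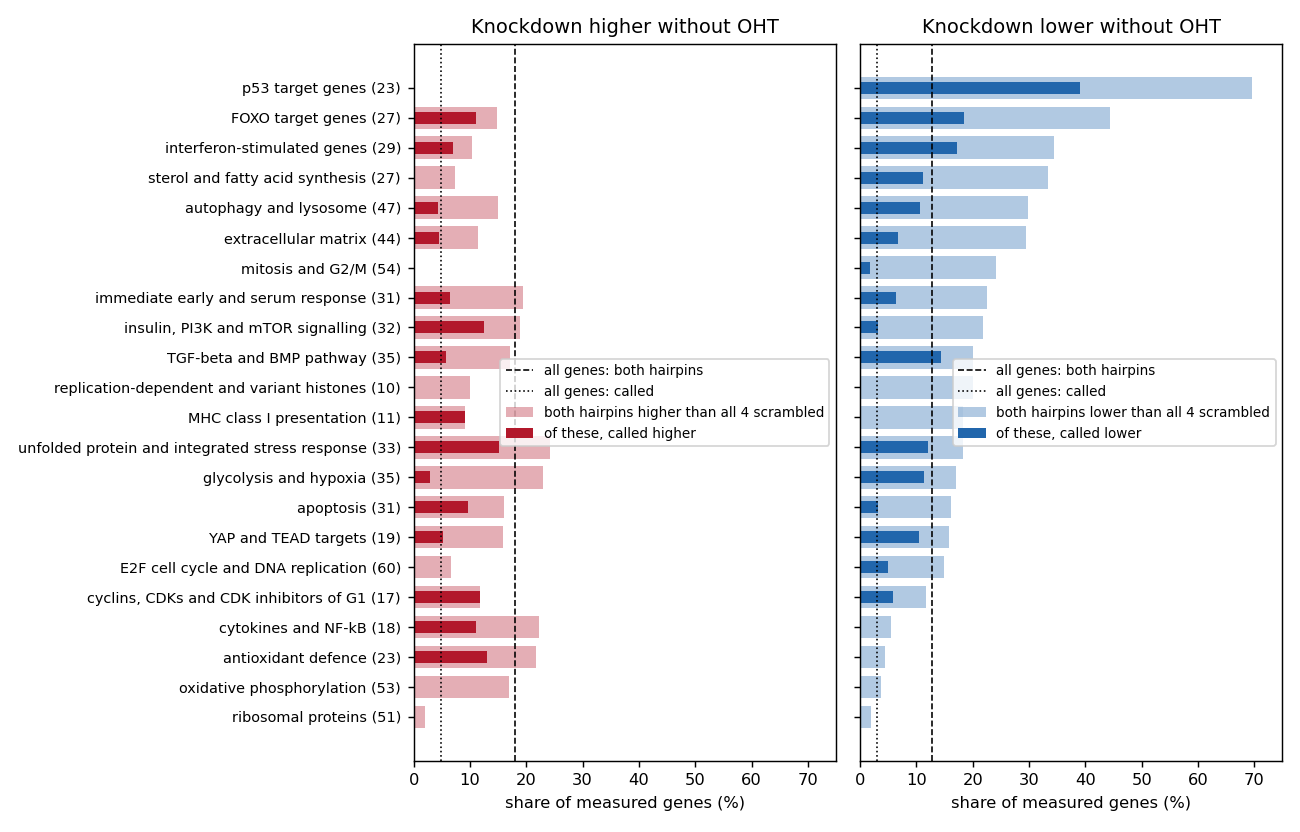
Share of the measured genes of each list (number in brackets) on which both hairpins were higher (left) or lower (right) than all 4 scrambled arrays (pale bars) and that were also called (dark bars); the dashed and dotted lines give the same shares over all 7720 genes. The p53 list has the longest lower bars of the lists shown, at 69.6% and 39.1%.

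Markers of blood and endothelial cells were sparse, while neural and epithelial markers were not. Of 13 blood cell markers 1 was above the filter, of 6 endothelial markers 0, of 7 epithelial markers 3, and of 9 neural markers 5 with 0 calls. The neural markers summed to 9189 with shFOXO33 and 10090 with shFOXO707, against 9859 to 10500 in the scrambled arrays. Of 11 osteoblast markers, the lineage of the line, 4 were above the filter with 0 calls, at a summed signal over all probe-matched markers of 9171 with shFOXO33 and 10660 with shFOXO707, against 10640 to 10990 in the scrambled arrays. Among epithelial markers EPCAM, an adhesion molecule, had 280.1 with shFOXO33 and 344 with shFOXO707, against 163, 182, 199 and 150.1 in the scrambled arrays, a difference of 0.79 ± 0.14 (SE; adjusted p = 0.00439), while the keratin KRT8 was lower at -0.43, a call lost without any 1 scrambled array (adjusted p of 0.0524 to 0.0643). The summed signal of the 7 epithelial markers was 7291 with shFOXO33 and 4800 with shFOXO707, against 6818 to 7358 in the scrambled arrays, and that of the blood cell markers 361 and 428, against 317 to 387. The part of these cell types in the results above was not tested. In these bulk arrays fewer cells of a type and less RNA per cell cannot be told apart.

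The hairpins differed from each other on many genes, fewer of them among the members. In a fit with each virus as its own group, 2300 of the 7720 genes (29.8%) differed between shFOXO707 and shFOXO33 without OHT. The share was 12.5% of the higher members, 25.2% of the lower members and 35.1% of the other genes, which follows in part from choosing genes on which the hairpins share a side. Among called members the widest gaps were on TDP1, SELENOP, CYFIP2, MAF and OAS3. For MAF the levels were 414 with shFOXO33 and 860 with shFOXO707, against 1252, 1377, 1245 and 1429.7 in the scrambled arrays, and for TDP1 236 with shFOXO33 and 91.5 with shFOXO707, against 373, 329, 318 and 374 in the scrambled arrays. On their brightest probe sets SELENOP, CYFIP2 and MAF fell further with shFOXO33, and TDP1 and OAS3 with shFOXO707. Another MAF probe set left 52.4% of the scrambled mean with each hairpin. A further one left 72.1% with shFOXO33 and 79.7% with shFOXO707. The dim second probe set of CYFIP2 left 73.4% with shFOXO33 and 60.4% with shFOXO707.

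When the probe sets of a gene were averaged, 15 named genes lost their calls. Besides KLHL24, NF2 and HMGCS1 these were NFKBIB, BID, PDK3, SEL1L, PHLDA1, EIF2AK2, IL6ST, PIK3CB, TXN, ULK2, RRM2 and VEGFA, at adjusted p of 0.0559 for NFKBIB to 0.429 for VEGFA.

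Near the threshold the values ran together. PSMD3, a proteasome subunit (-0.41), NQO2, a quinone reductase (0.50), and ATF3 were just inside at adjusted p of 0.0497 to 0.0499, and MRPS7, a mitochondrial ribosomal protein (-0.54), EXOSC5, an exosome subunit (-0.50), and the cytokine IL18 (0.22) were just outside at 0.0501 to 0.0502. Leaving out any 1 scrambled array moved PSMD3 out of the calls (0.0907 to 0.0958), and 3 of them did so for NQO2 (0.0587 to 0.0869). Level also differed between the directions, with a median scrambled signal of 495 for genes called higher, 1021 for genes called lower and 520.2 for all genes.

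The arrays with OHT gave a reading of the members that the rule did not use, from other arrays of the same viruses. The ACTB 3′ to 5′ ratio of both shFOXO707 arrays with OHT, 2.04 and 1.95, was above that of the shFOXO33 arrays, 1.6 and 1.63, and of the scrambled arrays, 1.6 to 1.74, and its part in the counts was not tested beyond leaving those arrays out. With OHT 1138 of the 7720 genes were called higher in knockdown cells (14.7%) and 618 lower (8.01%). Of the 1379 higher members 662 were called higher there (48.0%) and 31 lower, and of the 988 lower members 352 were called lower (35.6%) and 20 higher. Among the 5353 other genes 8.52% were called higher and 4.39% lower. Of the 374 members called higher without OHT, 248 were called higher with OHT and 9 lower, and of the 228 called lower, 158 were called lower and 1 higher. Without the shFOXO707 arrays with OHT, a setting chosen after seeing the data, 660 higher members were called higher and 431 lower members lower. With the random block the counts were 33 and 23.

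Of the 15 largest members each way, 13 higher ones (all but ADAMTS1 and EPHA4) and 12 lower ones (all but CD70, SELENOP and CRYBA4) were called the same way with OHT. HSD17B10 differed by 3.03 ± 0.14 (SE; adjusted p = 2.34e-08) with OHT and DYNLRB1 by 3.33 ± 0.10 (SE; adjusted p = 3.4e-10). AHNAK2 differed by -1.84 ± 0.12 (SE; adjusted p = 6.21e-07) and IFI6 by -1.67 ± 0.08 (SE; adjusted p = 2.34e-08). SELENOP, at -0.36 ± 0.25 (SE; adjusted p = 0.327), and CD70, at -0.54 ± 0.19 (SE; adjusted p = 0.0623), were not called with OHT. On the lists, p53 target genes had 10 of 23 called lower with OHT, FOXO targets 9 of 27 lower and 2 higher, and interferon-stimulated genes 8 of 29 lower and 3 higher. Over all genes 8.01% were called lower with OHT and 14.7% higher. CDKN1A differed by -0.29 ± 0.06 (SE; adjusted p = 0.00273) with OHT, while MDM2, at 0.10 ± 0.12 (SE; adjusted p = 0.6), and TRIAP1, at -0.12 ± 0.05 (SE; adjusted p = 0.119), were not called.

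**Figure D5:**
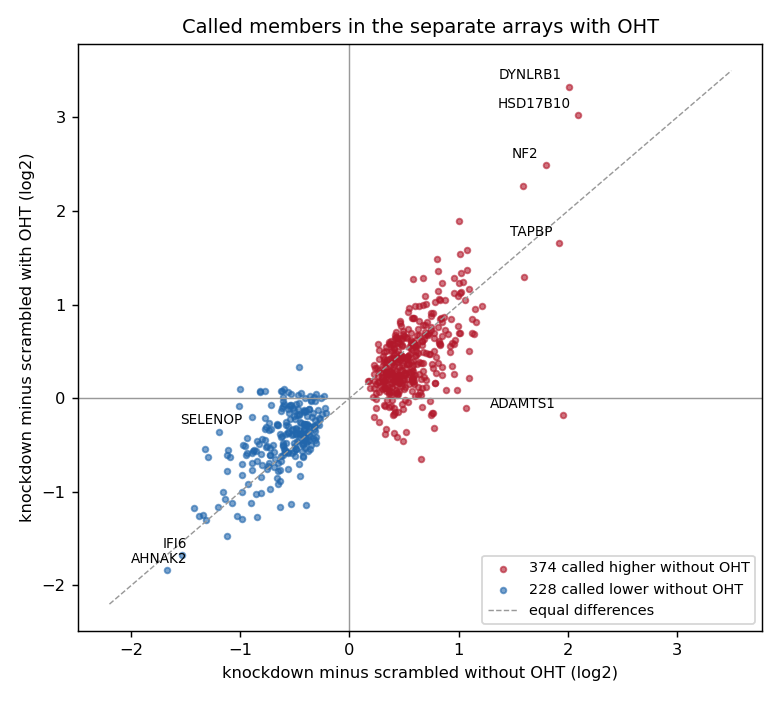
Difference of knockdown from scrambled arrays with OHT (vertical axis) against that without OHT (horizontal axis), both in log2 of signal + 16, for the 374 members called higher (red) and the 228 called lower (blue) without OHT; the 2 axes share no array. Most points keep their sign, DYNLRB1 and HSD17B10 lie above the dashed line of equal differences, and ADAMTS1 lies near 0 on the vertical axis.

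The difference between the knockdown effects with and without OHT was called for 27 of the 7720 genes (0.35%), 22 of them members. It includes the arrays that chose the members, so its split by side is a description: of 21 higher members, 19 had a smaller value with OHT, 17 of these 21 lay below 0 there and 12 were called lower. ADAMTS1 had a difference of -0.18 with OHT against 1.96 without, so its effects differed by -2.15 (adjusted p = 0.00234). TRIB1 had -0.16 with OHT against 0.77 without, a difference of -0.93 (adjusted p = 0.000665). DYNLRB1 went the other way, with 3.33 with OHT against 2.01 without, a difference of 1.32 (adjusted p = 0.00398). The immediate early factor ATF3, at -0.77 (adjusted p = 0.0476), and VEGFA, at -0.58 (adjusted p = 0.0273), were also in this set.

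Other members of the set, named after their values were seen, included signalling genes that were higher without OHT. FGF9, a growth factor, differed from scrambled cells by -0.46 with OHT and 0.49 without, and PTCH1, the hedgehog receptor, by -0.36 and 0.52. HEY1, a Notch target, differed by 0.03 with OHT and 0.65 without, and MSX1, a homeobox factor, by -0.17 and 0.41. Under the random block 0 genes passed this test at an adjusted p under 0.05 in limma and 76 at an unadjusted p under 0.05. Leaving out single arrays gave 4 (without scrambled replicate 1 with OHT) to 41 (without shFOXO707 replicate 2 with OHT), and leaving out both shFOXO707 arrays with OHT gave 391.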

How the data were processed

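Total RNA of U2OS ER-E2F1 cells was labelled as biotinylated cRNA and hybridised to 1 Affymetrix array a sample, 14 in all, per the labels' protocols. The deposited values are linear MAS5 signal intensities as deposited by the authors (the submitters' processing notes name the algorithm and no version); the trimmed mean of every array was 500. The intensities were taken as log2(signal + 16) with no further normalization. Of 22277 probe sets 19064 carried 1 gene symbol, and each gene was read by its brightest probe set above the 40th percentile of mean log2 level (6.57), giving 7720 genes. Differences were tested with limma 3.58.1 in R 4.3.3 over the 14 arrays in 4 groups (knockdown and scrambled, with and without OHT), with a variance trend and Benjamini-Hochberg adjustment. The number of arrays limits the precision. A second fit with each virus as a group gave the hairpin differences.

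The members and gene lists were chosen with earlier results of these data known, and the lists come from general knowledge of each pathway. Named genes were the 15 largest called members each way, up to 5 called members per list with the smallest adjusted p, the targets, the 5 widest hairpin gaps, the 3 genes on each side of the threshold, and 10 fixed FOXO-related genes, of which TXNIP, IRS2 and SOD2 have no value here. Genes named beyond this rule, chosen after their values were seen, were MDM2, XPC, TIGAR, BAX, PMAIP1, CCNG1, CAV1, TAP1, IFIH1, IRF9, HLA-B, B2M, SQLE, LSS, FGF9, PTCH1, HEY1, MSX1 and REV3L. Array replicate numbers exist with OHT for both viruses; deviations of same-numbered arrays correlated at 0.02, -0.02 and 0.05, so the numbers were not taken to pair arrays. Promoter windows came from RefSeq on GRCh38.p14, matched by gene for 6440 genes. Alternatives varied the pseudocount, filter, centring, probe set choice, model, hairpin and single arrays.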

Additional observations from a re-analysis of the deposited data

Results flagged for a closer look

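Among 220 groups of 4 scrambled arrays, single arrays stood apart from the other 3 by Dixon's 95% limit in 15 (6.82%), where chance gives about 1 in 20. Without OHT these were SCD (5008), LTBP2 (2495), KLF6 (866) and CASP8 (444) in replicate 1, VEGFA (854) in replicate 2, IFI6 (1063), FAS (1687) and KLHDC3 (455) in replicate 3, and CPOX (1026), ADAMTS1 (111) and ULK2 (100.7) in replicate 4, all MAS5 signals. With OHT they were ALDOC (99.2) in replicate 1, IL6ST (2823) in replicate 2, and BCL2L11 (584) and PIERCE1 (115) in replicate 4.

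For 5 named genes the knockdown effect with OHT minus that without OHT passed the limma test of the difference. These log2 differences were -2.15 for ADAMTS1, -0.93 for TRIB1, -0.77 for ATF3, -0.58 for VEGFA and 1.32 for DYNLRB1.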

How the results depend on the processing

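Against 374 genes called higher and 229 lower, taking virus and treatment as a random block gave 16 and 12, the 6 arrays without OHT alone 151 and 135, and 6 groups with the mean of the hairpins 1187 and 1179. Of the 602 called members, 263 stayed called over the 6 arrays, 28 with the random block and 405 to 463 without 1 scrambled array; averaging the probe sets of a gene kept 517 and turned the sign of 2, named after their values were seen, G3BP2 (-0.01 in place of 0.48) and PPM1A (0.003 in place of -0.47). Leaving out 1 scrambled array gave 252 to 299 genes called higher and 160 to 183 lower, and 1536 to 1609 genes above and 1101 to 1147 below all scrambled arrays. With the shFOXO33 array alone 2992 genes lay above and 2445 below, and with shFOXO707 alone 2845 and 2436. The members called again with OHT were 33 higher and 23 lower under the random block, 569 lower with 6 groups and 548 lower with members taken from shFOXO33 alone, and leaving out 1 array gave 535 to 690 higher and 268 to 367 lower. The difference of effects was called for 41 genes with shFOXO33 alone, 81 with shFOXO707 alone, 42 with a filter at the 60th percentile, 0 with the random block (limma; 76 at an unadjusted p under 0.05), 4 to 41 without 1 array, and 391 without both shFOXO707 arrays with OHT, a setting chosen after seeing the data. The hairpin difference was called for 2249 to 2376 genes without 1 scrambled array, and was not run with the random block, whose blocks are the hairpin groups themselves. CDKN1B (0.0679) and KLF6 (0.0654) turned sign with shFOXO33 alone, and neither was called. The cause of these shifts was not tested.

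A replicate block on the arrays with OHT numbered 1 and 2 called 13 higher and 6 lower members, against 80 and 37 on the same arrays without a block, an alternative chosen after seeing the data; the arrays share only a number. No replicate block was possible without OHT, where each virus has 1 array.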

Other observations

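Genes on which a single hairpin array lay outside the scrambled arrays are not members. Among the 54 measured mitosis genes, shFOXO33 was above all scrambled arrays on 18 and below on 17, and shFOXO707 above on 4 and below on 30. Among the 53 measured genes of oxidative phosphorylation, shFOXO33 was above on 33 and below on 8, and shFOXO707 above on 13 and below on 13. With OHT 28 of the 54 mitosis genes were called higher in knockdown cells, against 14.7% of all genes, and 1 was called lower, against 8.01%.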
